A study of Papio anubis with 28 samples.

Results

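The respiratory chain moves electrons from food-derived NADH and succinate to oxygen through complexes I to IV in the inner mitochondrial membrane, and complex V, the ATP synthase, uses the proton gradient this builds to make ATP. Its subunits come from 2 genomes: a few hydrophobic core subunits are encoded on the mitochondrial chromosome and transcribed inside the organelle, and all others, with the assembly factors, are encoded in the nucleus and imported. Absorptive cells of the small intestine carry many mitochondria, because nutrient uptake runs on ATP-driven ion pumps, and contractile smooth muscle of the bladder wall depends on the same chain. Transcripts of these genes were described in native baboon bladder and in 3 kinds of tissue grafted into it. Members were found by a rule on the count table: nuclear genes whose symbol begins with NDUFA, NDUFB, NDUFC, NDUFS, NDUFV, SDHA to SDHD, UQCR, COX4 to COX8 or ATP5, and the protein-coding genes of the mitochondrial chromosome. The rule found 84 of the 27533 genes in the table, 71 nuclear and 13 mitochondrial.

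From each of 14 wild-type olive baboons (Papio anubis), 1 library came from native bladder and 1 from the grafted segment. In the arm labelled Entero the graft was a piece of ileum sewn into the bladder (5 animals). In the arms labelled SIS (5 animals) and PRS (4 animals) the graft was a scaffold that had carried bone marrow cells, primary MSC and CD34+ HSPC (haematopoietic stem and progenitor cells), with the tissue that regrew on it. The sources used here do not give what PRS stands for, the age of the animals or the time since surgery. No ungrafted ileum was analysed here, so traits of bowel and effects of grafting cannot be told apart. Libraries are numbered by animal within an arm, so ileum library 1 and native library 1 of the Entero arm are the same animal.

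The libraries held between 20975648 and 35669026 counts, and 17177 genes passed the filter on low counts. All 13 mitochondrial members passed, and 64 of the 71 nuclear members did. The 7 that did not were NDUFA1, with 0 reads in 28 libraries, and NDUFA2, NDUFA4, COX6B2, COX7A2, COX7B2 and COX7C, with 10 to 121 reads in all. UQCRB, UQCR10 and ATP5G3 passed but stayed below 3 CPM in all libraries (CPM are reads scaled to a common library size by the TMM method). Several of these 10 are abundant in most tissues and have near-identical copies elsewhere in primate genomes; the sources used here do not say how such reads were counted, so their levels are uncertain. The rule took in 28 complex I subunits, SDHC alone of complex II, 6 subunits of complex III, 15 of complex IV, 10 of complex V, 10 assembly factors (NDUFAF1 to NDUFAF7, SDHAF1, SDHAF2 and ATP5SL) and ATP5S, an accessory factor. NDUFA4 and NDUFA4L2 are counted with complex IV, to which NDUFA4 is now assigned.

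The tissues differed in their cells. Marker genes of enterocytes, the absorptive cells of bowel, summed to between 2457 and 26859 CPM in the 5 ileum libraries and to at most 104 CPM in every other library. They were lowest in ileum library 4. Urothelial markers were lower in ileum, with 9 of 11 falling and KRT20 rising, 3 of 7 fibroblast markers fell, and the 10 smooth muscle markers, none of which passed the test, summed to between 4329 and 94593 CPM within the ileum group alone. In bulk tissue such as this, fewer cells of a type and less RNA per cell cannot be told apart. The part of these differences in the results below was not tested.

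In TMM-scaled CPM both genomes were at a higher level in the ileum graft than in the native bladder of the same animals. The 13 mitochondrial genes together took 33.9%, 16.4%, 16.3%, 13.97% and 18.45% of all counts in ileum libraries 1 to 5, against 6.80%, 7.56%, 10.5%, 8.46% and 8.66% in the native bladders of these animals. The groups of mitochondrial sums did not overlap. The 71 nuclear members summed to 5745, 8109, 11587, 9166 and 16881 CPM in ileum and to 5053, 4282, 6291, 8239 and 5352 CPM in native bladder, so those groups did overlap. Within animals the mitochondrial sum was 3.06-fold higher in the graft (geometric mean, range 1.45 to 8.04, n = 5) and the nuclear sum 1.69-fold higher (range 1.11 to 3.15), and both sums were higher in 5 of 5 animals. On unscaled totals the mean log2 difference of the nuclear sum was 0.32 in place of 0.76, and that of the mitochondrial sum 1.18 in place of 1.62. The nuclear share of all counts was then higher in 4 of 5 animals, and in animal 1 it was lower, at 0.610% in native bladder and 0.430% in ileum.

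**Figure D1:**
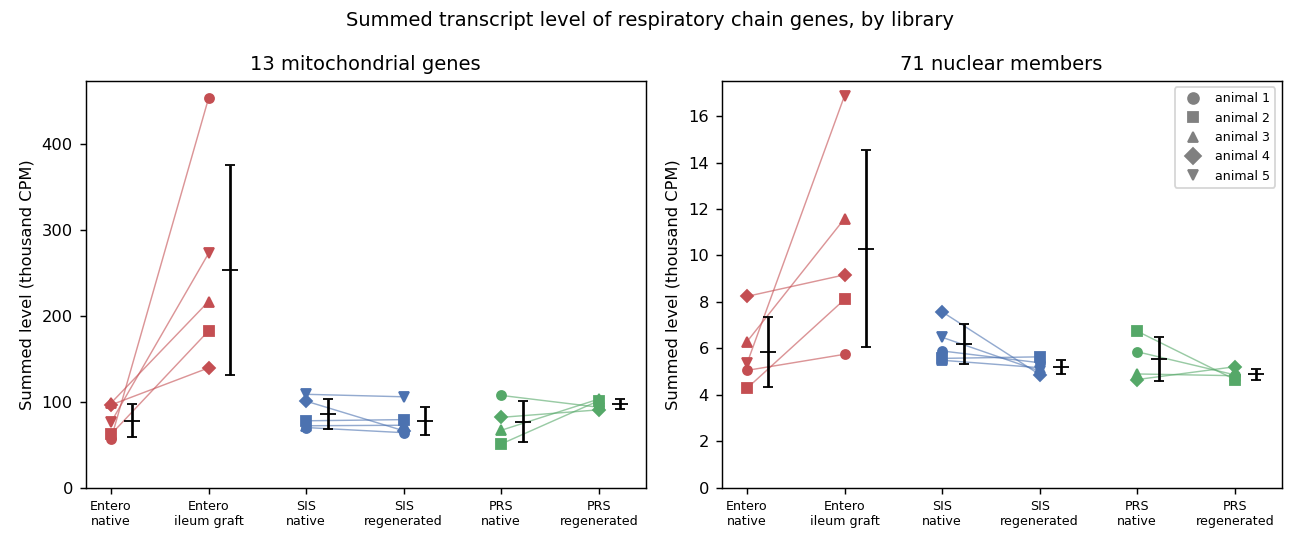
Summed level in CPM, divided by 1000, of the 13 mitochondrial genes (left) and the 71 nuclear members (right) in each of 28 libraries. Symbols mark animals, lines join the native bladder and graft of an animal, and black bars give mean and SD of each group (n = 5, or 4 in PRS). The 5 ileum libraries lie above all others in the left panel. In the right panel ileum library 1 lies among the native bladders, and ileum library 2 lies below Entero native library 4.

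Tested gene by gene, 9 of 13 mitochondrial members and 20 of 64 nuclear members rose in the ileum graft and 0 fell (edgeR's quasi-likelihood test, Benjamini-Hochberg adjustment over 17177 genes). Of all genes tested, 7.72% rose and 7.33% fell. The unadjusted p was under 0.05 for 34 nuclear and 9 mitochondrial members, all of them higher. Counts at an unadjusted p are given here and below without the share of all genes, so they cannot be set against it. DESeq2 called 31 and 9 higher and 0 lower, among 3458 genes it called in either direction. The median log2 fold change was 1.59 for the mitochondrial and 0.73 for the nuclear members, beside -0.03 for all genes tested, and 58 of the 64 nuclear members lay above 0. In 8 mitochondrial and 5 nuclear members every ileum library lay above every native library, as in 5.52% of all genes tested. With the animal as a block, where 2186 genes passed in either direction, 10 nuclear and 8 mitochondrial members rose. These were NDUFA6, NDUFS6, NDUFS7, NDUFV1, UQCRC1, COX4I1, COX5A, ATP5A1, ATP5C1 and ATP5D, and ND1, ND2, ND3, CYTB, COX1, COX3, MT-CO2 and ATP6. When only the 10 libraries of this arm were fitted, 3 nuclear and 6 mitochondrial members passed. That fit called 1843 of all genes in either direction, where the fit of 28 libraries called 2585.

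**Figure D2:**
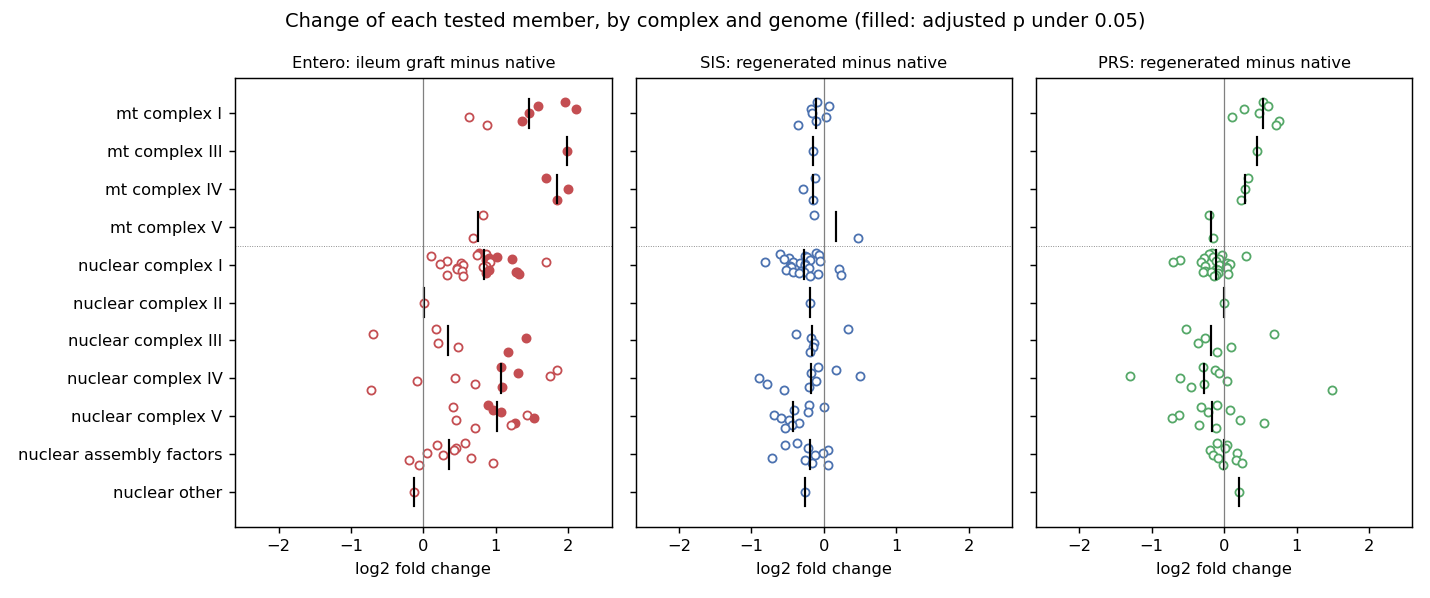
Log2 fold change of graft over native bladder for each tested member, by arm, genome and complex. Filled circles passed an adjusted p of 0.05, open circles did not, and black lines are medians of a class. COX8C, with reads in a single ileum library, is left out. Filled circles appear in the Entero panel only, all to the right of 0, and mitochondrial complexes I, III and IV have the highest class medians.

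Complex I, the NADH dehydrogenase, has 7 mitochondrial subunits in its membrane arm, and 5 of them rose in ileum. ND3 stood at 5448, 2422, 4826, 2543 and 6514 CPM in ileum libraries 1 to 5 and at 1271, 621, 969, 1191 and 990 CPM in native bladder. It rose by 2.11 ± 0.27 on the log2 scale (± is the SE; adjusted p = 6.36e-06, edgeR). Every ileum library lay above every native library, and ND3 passed in all 6 of the fits compared further on. ND1 rose by 1.96 and ND2 by 1.59 on the log2 scale, also without overlap. ND4 (1.46) and ND5 (1.37) rose as well, but ileum library 1 held 63771 CPM of ND4 where the other 4 held 13009 to 20877, and 15149 CPM of ND5 where the other 4 held 1708 to 3848. Blocking on the animal, neither passed (adjusted p = 0.0996 for ND4 and 0.284 for ND5, edgeR). ND4L, whose reading frame overlaps that of ND4, had a log2 fold change of 0.63 and ND6, the only subunit gene on the other strand, 0.88, with adjusted p of 0.380 and 0.274 (edgeR).

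Of the 26 nuclear complex I subunits tested, 10 rose and all 26 had a log2 fold change above 0 (median 0.84). NDUFV1, which binds NADH and the flavin where electrons enter, stood at 196, 261, 449, 225 and 577 CPM in ileum and at 137, 87.5, 151, 190 and 117 CPM in native bladder. The groups did not overlap, and the log2 fold change was 1.32 ± 0.25 (adjusted p = 0.000634, edgeR). NDUFS7 and NDUFS8, iron-sulphur subunits on the path to ubiquinone, rose by 1.3 and 0.87, and NDUFS6, an accessory subunit needed late in assembly, by 1.28. NDUFA6, NDUFA8, NDUFA10, NDUFB1, NDUFB10 and NDUFS3 rose by between 0.77 and 1.23. The large core subunit NDUFS1, which carries several iron-sulphur clusters, had a log2 fold change of 0.46 and did not pass (adjusted p = 0.144, edgeR), and neither did the core subunit NDUFV2 (0.33). NDUFS8, NDUFA8, NDUFA10, NDUFB1, NDUFB10 and NDUFS3 lost their call once the animal was a block (adjusted p between 0.0550 and 0.174, edgeR).

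Complex II, succinate dehydrogenase, was represented by SDHC, a membrane anchor subunit. It stood at 73.0, 108, 87.2, 132 and 170 CPM in ileum and at 102, 87.2, 131, 136 and 107 CPM in native bladder, with a log2 fold change of 0.02 ± 0.19 (adjusted p = 0.973, edgeR) and full overlap of the groups. SDHC was lower than in native bladder in ileum of animals 1, 3 and 4.

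In complex III, which passes electrons from ubiquinol to cytochrome c, the mitochondrial subunit CYTB stood at 51027, 17432, 24823, 12356 and 17724 CPM in ileum and at 3739, 5651, 8474, 7351 and 6110 CPM in native bladder. It rose by 1.98 ± 0.36 on the log2 scale (adjusted p = 0.000377, edgeR), and ileum library 1 was again the highest. Of 6 nuclear subunits tested, UQCRC1 and UQCRQ rose. UQCRC1, a large core protein on the matrix side, stood at 448, 406, 752, 397 and 850 CPM against 180, 154, 232, 297 and 205 CPM, without overlap and with a log2 fold change of 1.42 ± 0.24 (adjusted p = 0.000153, edgeR). Its partner core protein UQCRC2 had a log2 fold change of 0.20 and the Rieske iron-sulphur protein UQCRFS1 0.48, and neither passed. UQCRQ rose by 1.16, with 70.5 CPM in ileum library 5 and 12.6 to 24.1 CPM in the other 4, and lost its call once the animal was a block (adjusted p = 0.133, edgeR).

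Complex IV, cytochrome c oxidase, reduces oxygen, and its 3 core subunits are mitochondrial. All 3 rose. COX1 stood at 208480, 75812, 68527, 58043 and 118799 CPM in ileum and at 28766, 26654, 33402, 42175 and 33010 CPM in native bladder. It rose by 1.69 ± 0.39 on the log2 scale (adjusted p = 0.00336, edgeR). COX3 rose by 2.00 and MT-CO2 by 1.85, and for all 3 genes each ileum library lay above each native library. Of 10 nuclear members tested, COX5A, COX4I1 and COX8A rose. COX5A, which lies next to the core on the matrix side, stood at 138, 255, 227, 221 and 433 CPM in ileum against 92.8, 91.9, 120, 116 and 95.4 CPM in native bladder, without overlap; it rose by 1.31 ± 0.21 on the log2 scale (adjusted p = 0.000102, edgeR). COX4I1, the common form of the subunit that binds ATP, rose by 1.08, and COX8A, the common form of the smallest subunit, by 1.08. COX8A lost its call once the animal was a block (adjusted p = 0.0918, edgeR).

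Tissue forms of complex IV subunits did not pass in any arm. COX4I2, the form best known from lung and induced by low oxygen, stood at 2.21 to 7.20 CPM in ileum and 0.639 to 2.06 CPM in native bladder, so the groups did not overlap at these low levels, and the log2 fold change was 1.84 ± 0.67 (adjusted p = 0.0658, edgeR). NDUFA4L2, a hypoxia-inducible relative of NDUFA4, was at 0 to 9.02 CPM in ileum and at 2.14 to 19.9 CPM in native bladder. COX6A2 and COX8C lay below 4 CPM in all 28 libraries. COX7A2L, which helps join complexes III and IV, had a log2 fold change of -0.09 ± 0.19 in ileum, with 55.4 to 95.9 CPM there and 55.5 to 95.1 CPM in native bladder.

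In complex V neither mitochondrial subunit passed, and 5 of 10 nuclear subunits rose. ATP5A1, the alpha subunit of the catalytic head, stood at 761, 845, 883, 861 and 1622 CPM in ileum and at 492, 474, 577, 643 and 489 CPM in native bladder. The groups did not overlap, and the log2 fold change was 0.89 ± 0.19 (adjusted p = 0.00225, edgeR). ATP5B, the catalytic beta subunit, had a log2 fold change of 0.40 ± 0.18 and did not pass (adjusted p = 0.137, edgeR). ATP5C1 and ATP5D, which form the central stalk, rose by 0.96 and 1.07, and the membrane subunits ATP5I and ATP5J2 by 1.52 and 1.26. Blocking on the animal, neither ATP5I nor ATP5J2 passed (adjusted p = 0.101 and 0.172, edgeR).

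None of the 10 assembly factors passed in ileum. Their median log2 fold change was 0.35, and 2 had an unadjusted p under 0.05. SDHAF1, which helps mature the iron-sulphur subunit of complex II, had the largest value, 0.96 (adjusted p = 0.0577, edgeR). Of 25 further assembly factors outside the rule, ECSIT (0.84), FOXRED1 (0.75) and COX10 (0.70) rose, beside 7.72% of all genes tested. None of ECSIT, FOXRED1 and COX10 passed once the animal was a block. The difference between subunits and assembly factors was not tested.

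Other mitochondrial gene lists were read from the same fit, in which 7.72% of all genes tested rose and 7.33% fell. Whether a list differed from all genes was not tested. Of 14 genes of the citric acid cycle 8 rose in ileum and 0 fell, among them IDH3A (1.71) and IDH3G (1.33), subunits of the enzyme that oxidises isocitrate. Of 4 tested subunits and carriers that deliver electrons but lie outside the rule, ETFDH (1.45), ETFB (1.19) and ETFA (0.96) rose; these pass electrons from fatty acid oxidation to ubiquinone. Of 13 genes for upkeep and transcription of mitochondrial DNA only POLRMT (0.96), the mitochondrial RNA polymerase, rose. Of 11 regulators of mitochondrial biogenesis PPARA (2.81), ESRRA (1.33) and HNF4A (8.14) rose; HNF4A is also a gut epithelial factor. Of 11 membrane and import genes SLC25A5 (2.10), an ADP and ATP carrier, and PHB (1.08) rose. Blocking on the animal, ETFB and PHB did not pass.

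Within the ileum group, libraries 1 and 5 stood apart in their nuclear members, in opposite directions. Library 1 had the highest mitochondrial share, but 60 of the 64 nuclear members tested lay below their mean in the other 4 ileum libraries, with a median log2 difference of -1.08. ATP5I was at 36.1 CPM there and at 120 to 452 CPM in the others, and NDUFB1 at 25.8 against 84.8 to 267. The ratio of mitochondrial to nuclear reads was 78.8 in library 1 and 15.2 to 22.5 in the other 4. In library 5, 62 of the 64 lay above, with a median of 0.98.

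Nuclear members are short: the median length of the tested members was 692 bases in the deposited table, beside 1730 for all genes tested, and 65.6% were at most 1000 bases long, beside 26.3%. In ileum library 1 all genes of at most 500 bases with a mean above 10 CPM had a median log2 difference of -1.08 from the other ileum libraries, and genes of 2001 to 4000 bases 0.22. In ileum library 5 the same classes had medians of 0.75 and -0.04. The nuclear members in these classes (14 and 5 genes) had medians of -1.69 and -0.31 in library 1. In library 5 their medians were 1.36 and 0.94, so the long members also lay apart from all genes of their length. The part of gene length in the results was not tested directly. When a trend with gene length was removed from each library, an alternative chosen after these values were seen, 23 nuclear and 9 mitochondrial members rose, 19 and 9 of them also in the fit without it. With both the trend removed and the animal as a block the counts were 14 and 8. Without ileum library 1 the nuclear count was 32, without ileum library 5 it was 9, and without both it was 18. Without Entero native library 1, 2 or 5 it was 11, 10 or 10. Of all genes, 2686 passed in either direction with the trend removed and 2225 with trend removed and block. Without both ileum libraries 1815 did, beside 2585 in the fit of 28 libraries. For the fits without a single library that number is not given here. NDUFS6, NDUFS7, NDUFV1, UQCRC1, COX4I1, COX5A, ATP5A1 and ATP5D, and ND1, ND2, ND3, CYTB, COX3 and MT-CO2, passed in these fits with and without the block, with the trend removed, without libraries 1 and 5 together, and in DESeq2. The fit of the Entero libraries alone was not among them. Only 3 nuclear members passed there, so not all of the nuclear members just named did. The fits without a single library were not among them either.

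**Figure D3:**
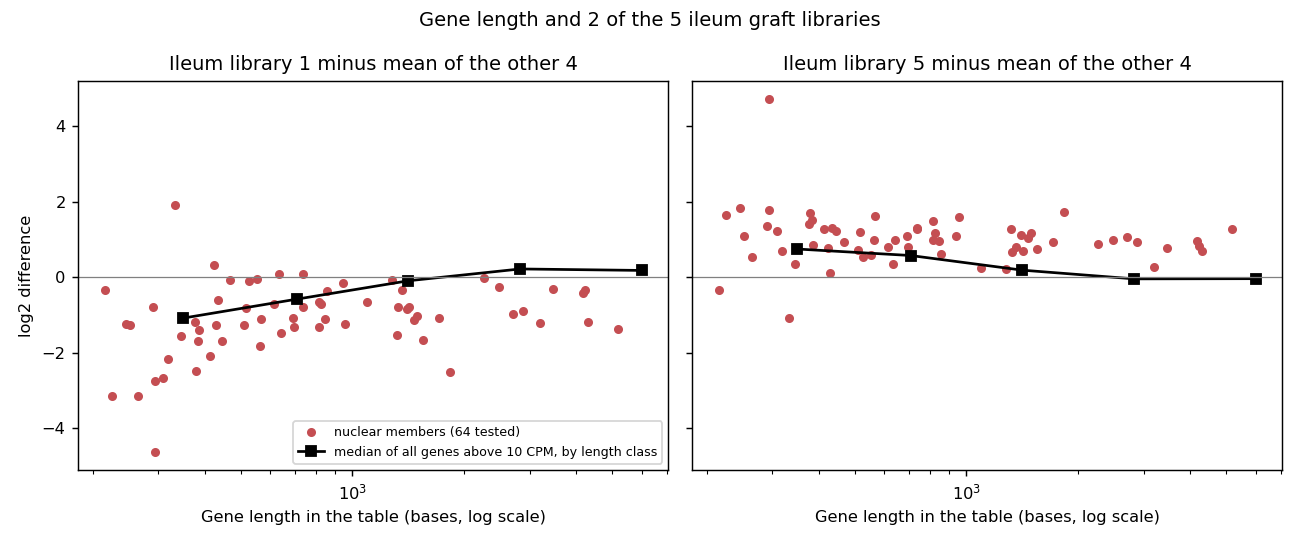
Log2 difference of ileum library 1 (left) and of ileum library 5 (right) from the mean of the other 4 ileum libraries, against the gene length in the table in bases (log scale). Red points are the 64 nuclear members tested, and black squares are medians of all genes above 10 CPM in 5 length classes. Short genes lie lowest in library 1 and highest in library 5, and most red points lie below 0 on the left and above 0 on the right.

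The regenerated tissues gave another picture. In the SIS arm 0 of 64 nuclear and 0 of 13 mitochondrial members passed, as did 0.0% of all genes tested. DESeq2 called 0 members, and 70 of all genes in either direction. The mitochondrial genes took 8.65% ± 0.933 (SD, n = 5) of counts in native bladder and 8.24% ± 1.99 in regenerated tissue. The nuclear sum was 6199 ± 861 CPM in native and 5216 ± 300 CPM in regenerated tissue, lower in 4 of 5 animals, with overlapping groups. Without animal 4 the mean log2 difference of the nuclear sum was -0.14 in place of -0.24, and that of the mitochondrial sum -0.03 in place of -0.15. Of the nuclear members 56 of 64 had a log2 fold change below 0 (median -0.25, beside 0.03 for all genes). COX7B, a small subunit of complex IV, was the only member with an unadjusted p under 0.05 in the fit of all groups. That count was 2 nuclear members with DESeq2, 2 without the filter, 10 with the SIS groups alone in the fit and 0 with the animal as a block. It stood at 141, 208, 136, 124 and 133 CPM in regenerated tissue and at 176, 133, 223, 376 and 363 CPM in native bladder, with a log2 fold change of -0.78 and overlapping groups. NDUFA8 and NDUFS8 lay lower in every SIS graft than in every SIS native bladder, by -0.48 and -0.34 on the log2 scale. That makes 2 of 64, where 0.524% of all genes tested did so. Between native bladders, 3 complex I, 1 complex IV and 1 complex V nuclear members lay lower in every PRS than in every SIS library. Likewise, 1 complex IV nuclear member lay higher in every SIS than in every Entero native bladder. The share of all genes in those native pairings is not given here. All 10 smooth muscle markers also had a log2 fold change below 0 in the SIS grafts (median -1.3), but not every animal went that way. Their sum, as log2 of graft over native bladder, was 0.98, 2.08, -1.88, -3.50 and -2.66 in SIS animals 1 to 5. The part of smooth muscle content in the values of this arm was not tested.

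In the PRS arm 0 of 77 members passed, as did 0.0% of all genes tested, and the unadjusted p was under 0.05 for 0 members. DESeq2 called 0 members, and 26 of all genes in either direction. Of the mitochondrial members 11 of 13 had a log2 fold change above 0 (median 0.33), including all 7 of complex I, while 44 of 64 nuclear members lay below 0 (median -0.11). The median over all genes tested was 0.02. The mitochondrial sum was 93549, 101143, 103060 and 90552 CPM in the 4 grafts and 107308, 50867, 66772 and 81800 CPM in their native bladders, higher in 3 of 4 animals. The nuclear sum was 4859, 4659, 4823 and 5209 CPM in the grafts and 5854, 6740, 4899 and 4659 CPM in native bladder, higher in 1 of 4. The ratio of mitochondrial to nuclear reads was therefore 19.3, 21.7, 21.4 and 17.4 in the grafts and 18.3, 7.55, 13.6 and 17.6 in native bladder. Those groups overlapped, and native library 2 had the lowest ratio of all 28 libraries. Without animal 2 the mean log2 difference of the mitochondrial sum was 0.19 in place of 0.39, and that of the nuclear sum -0.04 in place of -0.17. Without animal 1 the mitochondrial value was 0.59, and without animal 4 the nuclear value was -0.27. No test compared the genomes. All 11 urothelial markers had a log2 fold change below 0 in the PRS grafts (median -1.21, 0 passing), but the animals differed in direction. For the summed urothelial markers, log2 of graft over native bladder was 0.83, -3.98, -1.12 and 0.37 in PRS animals 1 to 4. The part of these markers in the values of this arm was not tested. ND2 was the member whose PRS grafts all lay above the native bladders, by 2645 against 2644 CPM at the nearest point, where 0.792% of all genes did so.

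The change from native bladder to graft was compared between arms by an interaction term. The SIS and PRS comparisons share the Entero libraries and are given side by side. Against Entero, the change was lower in SIS for 10 nuclear and 6 mitochondrial members (2.97% of all genes tested were lower and 3.59% higher) and lower in PRS for 3 and 2 (1.91% were lower and 1.58% higher). In either, 0 members were higher, also at an unadjusted p under 0.05 and in DESeq2. UQCRC1 had a log2 difference of -1.59 in SIS and -1.69 in PRS (adjusted p = 0.00351 and 0.00641, edgeR), COX5A of -1.49 and -1.38, and ND3 of -2.29 and -1.84. COX3 passed in both as well, at -2.28 and -1.71. ND1, CYTB, COX1, MT-CO2, NDUFA8, NDUFS3, NDUFS6, NDUFS7, NDUFV1, ATP5A1, ATP5C1 and ATP5I passed in SIS, and COX4I1 in PRS. With the animal as a block, UQCRC1, COX5A, ND3 and COX3 passed for SIS, and UQCRC1 and ND3 for PRS. The nuclear counts of 10 and 3 were 27 and 15 without ileum library 1 and 22 and 10 without Entero native library 4. The count of 10 fell to 5 or 6 without Entero native library 2 or 5, ileum library 3 or 5, SIS native library 4 or 5, or SIS graft 5. The count of 3 was 7 without ileum library 2 and 5 without ileum library 4 or PRS native library 3, and the mitochondrial count of 2 in PRS was 1 when any of 12 single libraries was left out.

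Set directly against each other, SIS grafts were lower than ileum grafts for 32 nuclear and 9 mitochondrial members (10.2% of all genes were lower), and PRS grafts for 28 and 7 (6.75%). With only the compared groups in the fit these counts were 16 and 5 for SIS and 4 and 1 for PRS. Those fits called 2326 and 1040 of all genes in either direction, where the fit of 28 libraries called 3627 and 2398. Without ileum library 5 the nuclear count was 18 in both. COX5A, for example, was at 72.2 to 92.0 CPM in SIS and at 68.2 to 100.1 CPM in PRS grafts, below all 5 ileum libraries. Every SIS graft lay below every ileum graft for 7 nuclear and 7 mitochondrial members (6.33% of all genes), and every PRS graft did for 14 and 7 (5.72%). Between PRS and SIS grafts 0 members passed and 0.0% of all genes did. At an unadjusted p under 0.05 there was 1 member, and DESeq2 called 1 member and 15 of all genes. Among native bladders of the 3 arms 0 members passed in any of the 3 pairings by edgeR, as did 0.0% of all genes. At most 3 nuclear members and 1 mitochondrial member had an unadjusted p under 0.05 in a pairing, given without the share of all genes. DESeq2 called at most 1 member in a pairing. Of all genes it called 64 for SIS against Entero, 28 for PRS against Entero and 114 for PRS against SIS. No animal is in 2 arms, so these pairings have no block.

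The levels of the 2 genomes lie far apart. Per length, as RPKM (CPM per kilobase of the deposited gene length), COX1 was at 20906 and MT-CO2 at 14801 RPKM in Entero native bladder, the means of 5 libraries. COX4I1, the highest nuclear member there, was at 566 RPKM, COX7B at 435 and NDUFB2 at 404. In the ileum graft COX1 was at 67516, MT-CO2 at 53239 and COX4I1 at 1194 RPKM. COX1 alone took 34.0% to 51.1% of the mitochondrial reads over the 14 native bladders and 31.7% to 46.1% over the grafts, and the values of an animal's 2 libraries lay within 1.11-fold of each other in all 14 animals.

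ATP6 and ATP8, mitochondrial subunits of complex V with overlapping reading frames, differed widely between animals, and ATP6 far less between the tissues of an animal. ATP6 took from 0.764% to 14.3% of the mitochondrial reads in native bladder, an 18.8-fold range, and from 0.559% to 13.1% in the grafts. In 13 of 14 animals the native bladder and the graft lay within 1.5-fold of each other; PRS animal 2 differed by 2.23-fold. Entero animal 3 had 13.2% and 9.35% and PRS animal 1 14.3% and 13.1%, while Entero animal 1 had 0.769% and 0.581%. ATP8 was highest in the same 2 animals, at 323 and 444 CPM in Entero animal 3 and at 425 and 363 CPM in PRS animal 1, and at or below 82.4 CPM in all other libraries. Its share of mitochondrial reads lay within 1.5-fold between tissues in 11 of 14 animals, and PRS animal 2, at 0.0815 and 5.75 CPM, differed most. In the fit without the animal ATP6 had a log2 fold change of 0.82 ± 0.99 in ileum (adjusted p = 0.642, edgeR). With the animal as a block it rose by 1.38 ± 0.37 (adjusted p = 0.0249, edgeR).

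NDUFB3, an accessory subunit of complex I, was near 0 in both libraries of 4 animals and present in both libraries of the other 10. In Entero animals 1 and 3, SIS animal 1 and PRS animal 4 it had 0 to 7 reads per library, at most 0.253 CPM. In the other 10 animals it had 57 to 1968 reads, or 2.28 to 98.2 CPM. The 4 animals span the 3 arms. The cause of these differences between animals was not tested, and no sequence of these genes was analysed here.

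**Figure D4:**
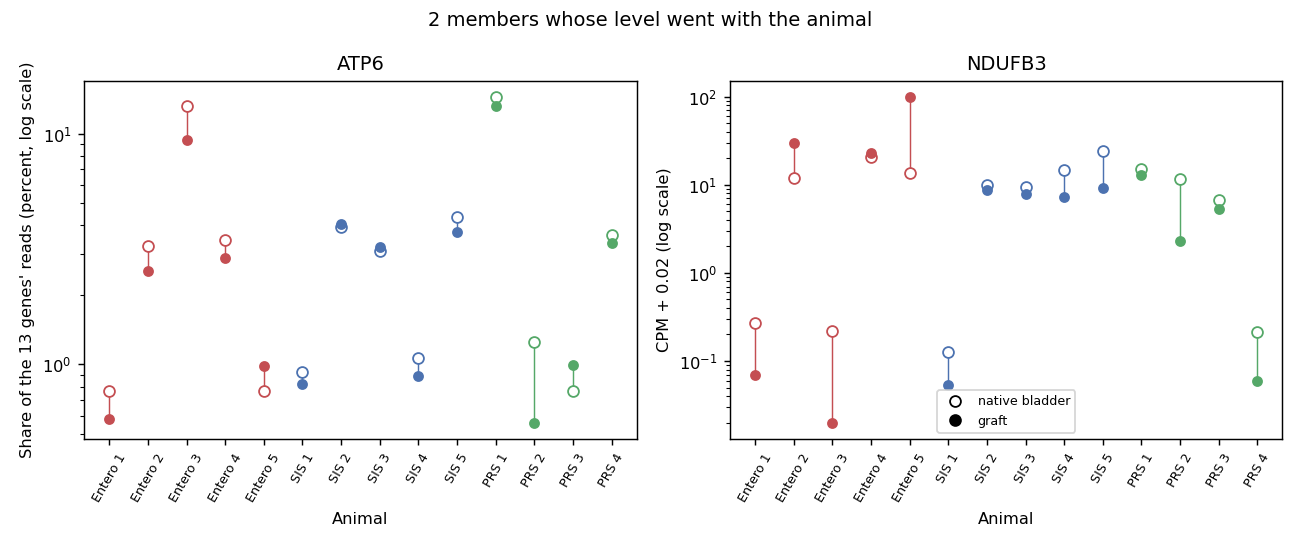
Share of ATP6 among the mitochondrial reads in percent (left) and NDUFB3 in CPM with 0.02 added (right), both on a log scale, for the native bladder (open) and the graft (filled) of each of 14 animals. Lines join the libraries of an animal. Entero 3 and PRS 1 stand highest in both tissues for ATP6, and Entero 1, Entero 3, SIS 1 and PRS 4 lie below 1 CPM in both tissues for NDUFB3.

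COX7A1, the form of subunit VIIa typical of contractile tissue, went with the smooth muscle content of the native bladders. It ranged from 14.8 to 92.4 CPM over 14 native libraries, in which the summed smooth muscle markers ranged from 2866 to 94748 CPM. On log2 values Pearson's r was 0.94 (permutation p = 1e-05, the smallest that 100000 permutations can give; adjusted p = 0.000320 over all genes) and Spearman's rho 0.96 (permutation p = 1e-05). Without the 2 libraries farthest from the median r was 0.95, and with values centred on the arm means it was 0.94. No value is given within an arm, since each has 4 or 5 native libraries. On unscaled CPM r was 0.92. Of all genes 16.0% were higher with the smooth muscle sum and 18.5% lower; this relation was chosen after the data were seen. In the 9 regenerated tissues r was 0.30 and rho 0.43 (exact permutation p = 0.456 and 0.250, two-sided). PRS graft 2 had 94293 CPM of smooth muscle markers and 25.4 CPM of COX7A1. The difference between native and regenerated tissue in this relation was not tested. COX7A1 is 225 bases long in the deposited table. It was highest among native bladders in Entero library 4. Genes there of at most 500 bases with a mean above 10 CPM had a median log2 difference of 0.48 from the rest of the group. That median was -0.35 in Entero native library 2, -0.36 in PRS graft 2 and between -0.08 and 0.10 in the SIS native libraries. The part of gene length in this relation was not tested. In ileum COX7A1 was at 5.58, 18.4, 101, 49.6 and 85.7 CPM, and library 1 was the lowest of all 28.

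**Figure D5:**
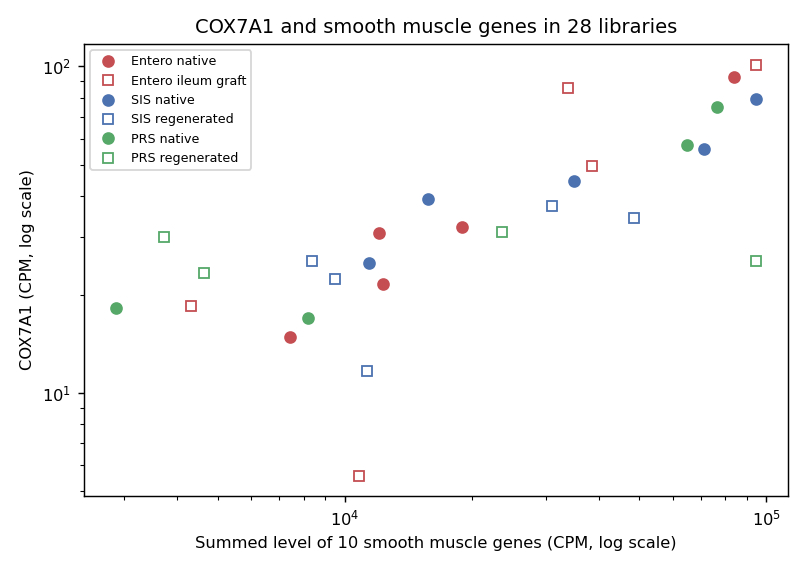
COX7A1 in CPM against the summed level of 10 smooth muscle genes in CPM, both on log scales, in 28 libraries. Filled circles are native bladders and open squares are grafts, with colour for the arm. The native bladders line up from 14.8 to 92.4 CPM, and several grafts lie away from that line, with ileum library 1 lowest at 5.58 CPM.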

How the data were processed

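Poly-A selected, directional, paired-end RNA libraries of 28 tissues were used. The authors deposited raw read counts per gene. Per the submitters' processing notes the tools were HISAT2 2.0.5 together with StringTie 1.3.3b and, for counting, featureCounts 1.5.0-p3. The sources used here do not give the genome build, annotation release or strand setting, so reads of overlapping genes (ATP6 and ATP8, ND4L and ND4) and of near-identical copies may be shared.

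The test was edgeR 4.0.16 (R 4.3.3): filterByExpr with a minimum count of 10, TMM scaling, 1 quasi-likelihood model of 28 libraries in 6 groups, and Benjamini-Hochberg adjustment over 17177 genes at 0.05. An SE is the size of the log2 fold change divided by the root of F. Replicates are separate animals by the codes in the labels. Both tissues of an animal carry the same code, so the animal block pairs them; the deviations of an animal's libraries from their group means correlated between -0.299 and 0.707, above 0.1 in 8 of 14 animals. Alternatives were DESeq2 1.42.0, other scalings, no filter, each library left out and a fit of the compared groups alone. The edgeR test was tested on simulated data.

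The members and gene lists were chosen with earlier results of these data known. Named were the 13 mitochondrial genes, the 2 nuclear members with the smallest p in each class and arm, tissue isoforms and catalytic subunits, and the 3 smallest p of each mitochondrial list. Other members named, and the relation to smooth muscle genes, were picked after their values were seen. For that relation log2(CPM + 1) was set against the log2 sum of 10 smooth muscle markers. Values of some single genes are not reported here.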

Additional observations from a re-analysis of the deposited data

Results flagged for a closer look

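In 49 of the 300 groups of 4 or 5 libraries examined, the highest or lowest library stood far from the rest by Dixon's test. Chance gives this in about 1 in 20 groups of independent, normally distributed values. Here values were not log-transformed and the genes share the same libraries, so these rates cannot be set against each other. The share of mitochondrial genes in ileum library 1 was 33.89%, and its ratio of mitochondrial to nuclear reads 78.8; in SIS graft 5 that ratio was 21.0. Among complex V genes of the mitochondrial chromosome, ATP6 stood highest in native bladder and ileum of Entero animal 3 (12969.5 and 20230 CPM) and in native bladder of PRS animal 1 (15397 CPM). ATP8 stood highest in both libraries of the same animals, at 323 and 444 CPM in Entero animal 3 and at 425 and 363 CPM in PRS animal 1.

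Ileum library 1 was also far above the rest for the complex I genes ND1 (12953 CPM), ND2 (14402), ND4 (63771), ND5 (15149) and ND6 (2659). Single high values of other mitochondrial genes were ND4L in Entero native library 3 (1361 CPM) and CYTB in SIS graft 5 (9657 CPM). Low single values were COX3 in PRS graft 1 (6920 CPM) and ND6 in PRS graft 4 (642 CPM).

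Ileum library 5 stood highest for 6 nuclear subunits: ATP5A1 (1622 CPM), ATP5B (738), ATP5C1 (544), ATP5O (602), UQCRC2 (516) and UQCRQ (70.5). Entero native library 4 stood highest for ATP5C1 (232 CPM), ATP5O (328), COX7B (382), COX7A1 (92.4), NDUFA12 (69.4) and NDUFA4L2 (19.9), and Entero native library 3 for the assembly factor SDHAF1 (14.6).

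In the SIS arm native library 4 stood highest for UQCRC1 (321 CPM), COX4I2 (4.83) and COX6A2 (0.778), and native library 2 for COX7A2L (99.2) and COX8C (3.71). SIS graft 2 stood highest for NDUFS6 (51.9 CPM) and COX7B (208) and lowest for NDUFAF1 (2.76). SIS graft 1 was highest for ATP5SL (73.5 CPM), SIS graft 3 for COX5A (91.97), and SIS graft 4 lowest for COX8A (154.5). In the PRS arm native library 2 was highest for COX8A (382 CPM) and graft 1 for UQCRC2 (244). COX6A2, with a few reads at most, was highest in Entero native library 2 (0.407 CPM), PRS native library 1 (0.537) and PRS graft 1 (0.208), and COX8C in ileum library 4 (0.760).

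The change from native bladder to graft differed between SIS and Entero in the interaction test of edgeR for 6 mitochondrial members. The log2 differences were -2.06 for ND1, -2.29 for ND3, -2.13 for CYTB, -1.82 for COX1, -2.28 for COX3 and -1.998 for MT-CO2. Nuclear members with such a difference were NDUFA8 (-1.39), NDUFS3 (-1.44), NDUFS6 (-1.55), NDUFS7 (-1.72), NDUFV1 (-1.40), UQCRC1 (-1.59), COX5A (-1.49), ATP5A1 (-1.10), ATP5C1 (-1.38) and ATP5I (-2.11). Between PRS and Entero they were ND3 (-1.84), COX3 (-1.71), UQCRC1 (-1.69), COX4I1 (-1.37) and COX5A (-1.38).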

How the results depend on the processing

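No alternative turned the direction of a named member that had passed. In the ileum comparison the nuclear count of 20 became 31 with DESeq2, 10 with the animal as replicate block and 3 when only the compared groups were fitted, and ran from 9 (without ileum library 5) to 32 (without ileum library 1) over single libraries left out. The mitochondrial count of 9 was 9 with DESeq2, 8 with the block, 6 with the compared groups alone and 6 without ileum libraries 1 and 5 (7 to 9 over single libraries left out). For the change in SIS against Entero the nuclear count of 10 became 24 with DESeq2, 2 with the block, 17 with the length trend removed, 6 with trend removed and block, and 6 with the compared groups alone (5 to 27 over libraries left out, by ileum libraries 5 and 1); the mitochondrial count of 6 became 2 with the block and 2 with trend and block (5 to 7). For PRS against Entero the nuclear count of 3 became 13 with DESeq2, 7 with DESeq2 size factors, 1 with the block, 9 with the trend removed, 1 with trend and block and 1 with the compared groups alone (2, without Entero native library 1, to 15, without ileum library 1). Its mitochondrial count of 2 became 5 with DESeq2, 1 without a filter, 1 with the block, 0 with trend and block, 1 without ileum libraries 1 and 5, and 0 with the compared groups alone (1 to 3, without Entero native libraries 1 and 4). Of all genes, DESeq2 called 1744 in either direction for the change in SIS against Entero and 1176 for PRS. The edgeR fit of 28 libraries called 1127 and 600, and with the block 675 and 240. DESeq2 called 1 nuclear member between PRS and SIS grafts, 1 between SIS and Entero native bladders and 1 between PRS and SIS native bladders, where edgeR called 0. It called 15, 64 and 114 of all genes in these 3 comparisons. Against ileum, the SIS counts of 32 and 9 became 16 and 5 with the compared groups alone (18 to 38 and 8 to 10 over libraries left out), and the PRS counts of 28 and 7 became 4 and 1; without ileum libraries 1 and 5 the latter was 4 (18 to 37 and 5 to 7). For SIS and PRS grafts against native bladder the counts stayed at 0 over all libraries left out. With the compared groups alone, 1843 of all genes passed in either direction for ileum against native bladder. For SIS and PRS grafts against ileum, 2326 and 1040 did. The cause of these shifts in the counts was not tested. No block could be fitted between grafts or between native bladders, which come from different animals.

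Low reads limit COX6A2, COX8C, UQCRB, UQCR10 and ATP5G3, and 4 or 5 animals a group limit all comparisons; a difference that missed the threshold is not shown to be absent.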

Other observations

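Beyond COX7A1, other nuclear members went with the smooth muscle content of the 14 native bladders, a relation examined after the data were seen, and how many did so depended on the scaling. Over 17163 genes with a value, on TMM-scaled CPM, 26 of 64 nuclear members were higher with the summed smooth muscle markers and 1 lower, while 16.0% of all genes were higher and 18.5% lower (Pearson's r on log2 values, permutation test, Benjamini-Hochberg adjustment). The median r was 0.57 for nuclear members and -0.12 for all genes. On unscaled CPM 13 nuclear members were higher, all of them among the 26, and 4 lower, beside 9.93% and 31.2% of all genes. The median r was then 0.19 for nuclear members, with 28 of 64 below 0, and -0.37 for all genes. COX4I1 of complex IV, for example, went from 0.67 to 0.19 and ATP5A1 of complex V from 0.57 to -0.47. In the 9 regenerated tissues the median r of the nuclear members was -0.04 on TMM-scaled CPM. The next after COX7A1 were NDUFB7 and NDUFA6 of complex I (r = 0.90 and 0.87), COX7B of complex IV (0.90) and ATP5O of complex V (0.90), all on TMM-scaled CPM. On unscaled CPM these 4 had r between 0.78 and 0.86. NDUFB7, NDUFA6, COX7B and ATP5O are 414, 518, 446 and 734 bases long, and the part of gene length in these relations was not tested. UQCRB, at under 3 CPM, had r = -0.78. None of the 13 mitochondrial members passed, and their median r was 0.14, or -0.08 on unscaled CPM.

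The 2 ribosomal RNA genes of the mitochondrial chromosome, which are no members, took 0.0811% to 0.272% of counts in Entero native bladder and 0.243% to 1.82% in ileum, with the highest value in ileum library 1. In a poly-A selected library their share need not follow their level in the cell.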
